A study of Rattus norvegicus with 86 samples.

Results

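Flt1 (ENSRNOG00000000940), Kdr (ENSRNOG00000046829), Vwf (ENSRNOG00000019689) and Slc2a1 (ENSRNOG00000007284) are genes of the endothelial cells that line the vessels of the brain. They were chosen by name and identifier, and all 4 were present among the 17180 Ensembl genes of the deposited table. The RNA-Seq libraries were made from the core of the nucleus accumbens, a part of the ventral striatum, in outbred rats of the Heterogeneous Stock (HS), which goes back to inbred founder strains. No treatment set the libraries apart, and the labels gave a sex and a rat batch number for each animal but no age. There were 2 females with 10 males in rat batch 2, 13 females with 7 males in rat batch 3, 14 females with 12 males in rat batch 4, 8 females with 8 males in rat batch 6, and 1 female alone in rat batch 5. Each of the 75 libraries came from 1 rat, and what a rat batch stands for was not stated.

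The endothelium of brain vessels forms the blood-brain barrier, and nutrients such as glucose cross it through dedicated transporters. Flt1 and Kdr encode the receptors VEGFR1 and VEGFR2 for vascular endothelial growth factor (VEGF). Kdr carries most of the growth and permeability signal, whereas Flt1 binds VEGF-A tightly but signals weakly, and its soluble form keeps the ligand from Kdr. Vwf encodes von Willebrand factor, a clotting protein that endothelial cells store and release. Slc2a1 encodes GLUT1, the glucose transporter of the barrier, which astrocytes also make. In a bulk sample, fewer endothelial cells and less RNA per cell cannot be told apart.

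The 3 upstream sequences are shown so that the promoters of the VEGF receptors and the glucose transporter can be read side by side. They are the 250 bases before the annotated start in RefSeq (build GRCr8), at chr12:12333180-12333429 for Flt1, chr14:32571813-32572062 for Kdr and chr5:138002272-138002521 for Slc2a1, all on the plus strand. Capitals mark every match, on either strand, to GGAA (the ETS core), ACGTG (the hypoxia response core), GGGCGG (the GC box) or TATAAA (the TATA box).
Flt1: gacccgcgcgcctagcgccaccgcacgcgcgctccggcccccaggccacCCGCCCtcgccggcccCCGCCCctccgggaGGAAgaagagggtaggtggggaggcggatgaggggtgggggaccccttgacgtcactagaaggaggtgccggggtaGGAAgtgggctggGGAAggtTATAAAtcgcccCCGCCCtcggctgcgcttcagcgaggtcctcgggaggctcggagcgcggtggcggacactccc
Kdr: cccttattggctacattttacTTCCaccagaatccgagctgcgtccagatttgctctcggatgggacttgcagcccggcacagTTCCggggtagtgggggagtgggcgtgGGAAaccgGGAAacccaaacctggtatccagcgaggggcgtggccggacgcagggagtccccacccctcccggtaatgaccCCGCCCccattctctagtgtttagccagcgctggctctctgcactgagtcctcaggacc
Slc2a1: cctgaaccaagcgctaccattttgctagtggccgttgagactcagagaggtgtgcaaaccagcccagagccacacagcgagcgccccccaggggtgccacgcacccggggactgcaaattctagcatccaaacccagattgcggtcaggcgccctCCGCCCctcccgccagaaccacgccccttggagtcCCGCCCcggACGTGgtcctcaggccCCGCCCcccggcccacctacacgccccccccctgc

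Flt1 held 3 matches to GGAA, 3 to GGGCGG and 1 to TATAAA, the last starting 75 bases before the start. Kdr held 4 matches to GGAA and 1 to GGGCGG. Slc2a1 held 3 matches to GGGCGG and 1 to ACGTG, 51 bases before the start, and it was the only one of the 3 with ACGTG and the only one without GGAA in this window. No match overlapped a match to another motif in any of them. Of 33469 promoters of the same length, 93.2% held GGAA, 16.6% ACGTG, 30.5% GGGCGG and 12.9% TATAAA. The G and C content was 73.2% for Flt1, 61.6% for Kdr and 68.4% for Slc2a1, against a median of 51.2% over all of them. These matches describe letters and not bound sites.

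The values analysed were log2(scaled count + 1), where the scaled count is the authors' estimated read count after adjustment of each library to its upper quartile. Whole read counts were recovered from the rounding of these values. The recovered total per library ran from 8455363 to 26145409, with a median of 17734462. No member was at 0 in any library, and the lowest count was 38, for Kdr in male 10 of rat batch 2, the library with the fewest counts. Fits used the 74 libraries of rat batches 2, 3, 4 and 6. The columns of the table fall into 3 runs, each in alphabetical order, whose meaning was not stated. Rat batch 2 lay in run 1 and rat batches 4 and 6 in run 3, while rat batch 3 had 7 libraries in run 1, 12 in run 2 and 1 in run 3. Other endothelial genes and markers of other cell types were not analysed here, because the table holds identifiers without names.

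The members differed from each other in how evenly they were expressed between rats. Over the 75 libraries, Flt1 had a lowest, median and highest log2 value of 9.12, 9.48 and 9.92, Vwf of 8.73, 9.18 and 9.76, Slc2a1 of 10.67, 11.32 and 11.93, and Kdr of 6.23, 7.01 and 7.86. These values include gene length, so the order of the levels between genes was not read. After the means of each rat batch and sex were removed, the SD between rats was 0.15 for Flt1, 0.20 for Vwf, 0.22 for Slc2a1 and 0.36 for Kdr (74 rats). Counting error alone gives an SD of 0.056 for Flt1, 0.062 for Vwf, 0.030 for Slc2a1 and 0.13 for Kdr at their recovered counts.

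Slc2a1 was among the more variable genes of its level. Its SD lay at percentile 89.3 of the 1216 genes with a mean within 0.5 of its own, whose median SD was 0.14. Kdr lay at percentile 80.3 of 1631 such genes (median SD 0.28), Vwf at percentile 69.9 of 2505 (0.17) and Flt1 at percentile 40.3 of 2514 (0.16). The endothelial genes thus ran from an SD below the median of comparable genes to one far above it. The SD within single rat batches ran from 0.12 to 0.21 for Flt1, from 0.29 to 0.41 for Kdr, from 0.18 to 0.24 for Vwf and from 0.20 to 0.24 for Slc2a1. All 4 members were least or second least variable in rat batch 4.

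**Figure D1:**
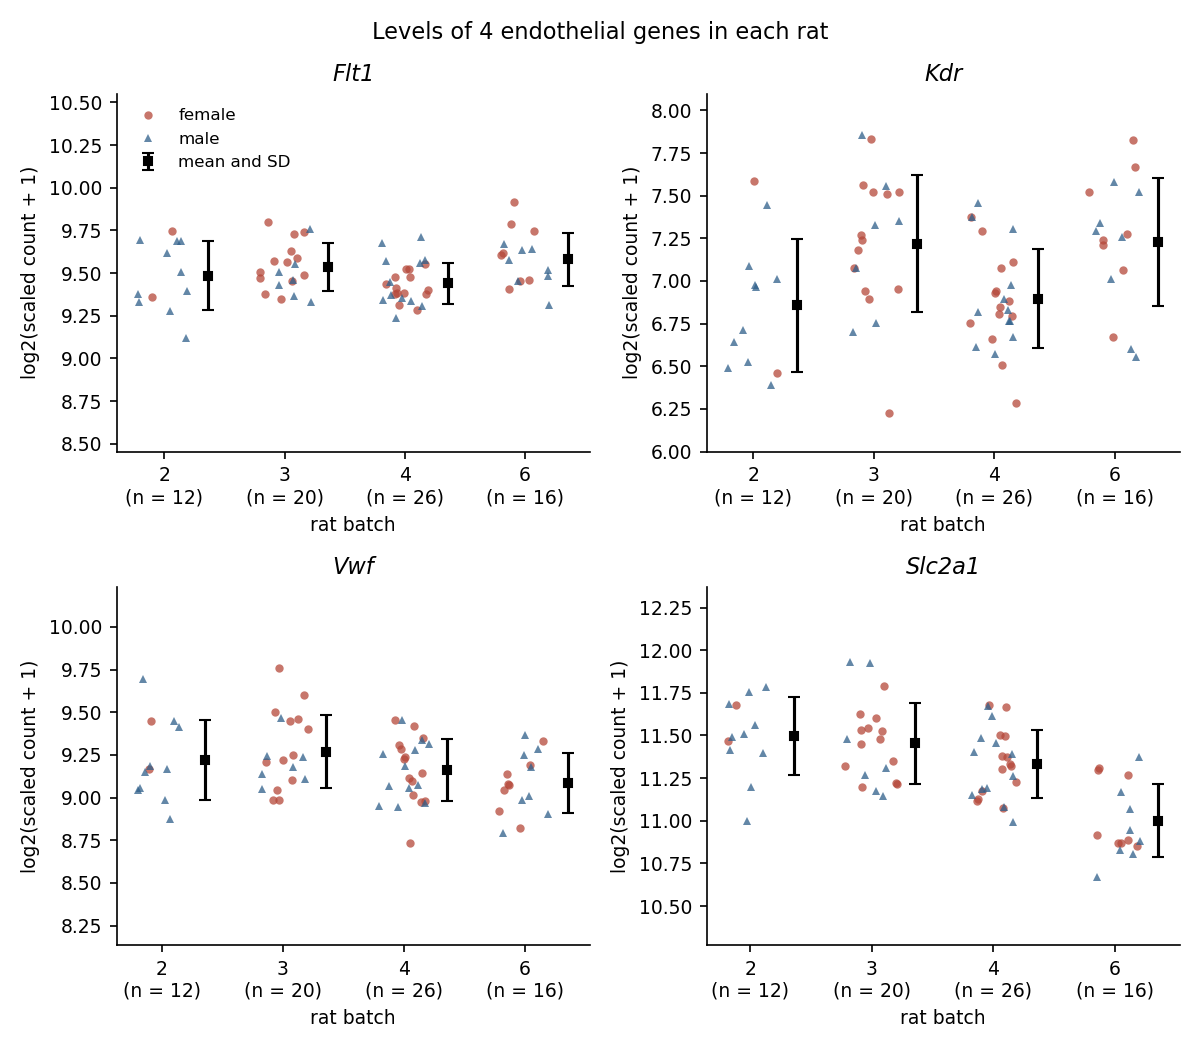
Levels of Flt1, Kdr, Vwf and Slc2a1 in each rat of rat batches 2, 3, 4 and 6, as log2(scaled count + 1), with females as circles, males as triangles and the mean and SD of each batch as a square with bars. Every panel spans the same range of log2 values. Slc2a1 sits lowest in rat batch 6, where its mean was 11.001, and Kdr is widely spread in every batch.

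The members were next compared between rat batches with a moderated F test in limma, with sex as a covariate. Slc2a1, Kdr and Flt1 differed between rat batches and Vwf did not pass the test, a count of 3 of 4 members where 53.5% of all 17180 genes were called. A share this close to the background is no result about the endothelial genes as a group. The limma adjusted p was 1.74e-07 for Slc2a1, 0.0065 for Kdr, 0.048 for Flt1 and 0.081 for Vwf. Without the 6 libraries with the fewest counts only Slc2a1 was called, with adjusted p values of 3.38e-06 for Slc2a1, 0.060 for Kdr and 0.054 for Flt1. In that setting 8308 of 17180 genes were called. Rat batch held 41.7% of the variance of Slc2a1, a share that lay at percentile 91.9 of all genes. The share was 18.2% for Kdr, 12.5% for Flt1 and 10.5% for Vwf, against a median of 13.6% over all genes.

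Slc2a1, the glucose transporter, fell in rat batch 6. Its lowest, median and highest log2 values were 11.001, 11.50 and 11.78 in the 12 rats of rat batch 2. They were 11.14, 11.47 and 11.93 in the 20 rats of rat batch 3, and the 26 rats of rat batch 4 had 10.99, 11.33 and 11.68. In the 16 rats of rat batch 6 they were 10.67, 10.90 and 11.37. The batches overlapped, but 10 of the 16 rats of rat batch 6 lay below every rat of rat batch 4, and all 16 lay below the median of rat batches 2 and 3. The 1 female of rat batch 5, which was not in the fits, had 11.25.

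The mean of Slc2a1 was 11.49 ± 0.23 (SD, n = 12), 11.45 ± 0.24 (SD, n = 20), 11.33 ± 0.20 (SD, n = 26) and 11.001 ± 0.22 (SD, n = 16) in rat batches 2, 3, 4 and 6. Rat batch 6 was lower than rat batch 2 by a log2 difference of -0.50 (95% interval -0.67 to -0.34, limma adjusted p = 2.51e-06), where 34.8% of all genes were called. Against rat batch 3 the difference was -0.45 (-0.59 to -0.31, limma adjusted p = 5.16e-07), where 43.1% were called. Against rat batch 4 it was -0.33 (-0.47 to -0.20, limma adjusted p = 0.0050), a scaled count 0.795 times as high. That last comparison is the sparsest of the 3, with 3.87% of all genes called, and both batches lie in the same column run. The absolute difference between rat batches 6 and 4 was larger for Slc2a1 than for 88.2% of all genes. With column run as a covariate the calls against rat batches 2 and 3 were lost, at -0.75 and -0.58 (limma adjusted p = 0.71 and 0.95). In that fit 0 of 17180 genes were called for either pair, and the unadjusted limma p of Slc2a1 was 0.0028 and 0.0098. With 20 expression components as covariates the differences from rat batches 2, 3 and 4 were -0.45, -0.28 and -0.29. None of these was called (limma adjusted p = 0.35, 0.55 and 0.25). Over all genes 16, 9 and 21 were called there, and the unadjusted limma p of Slc2a1 was 0.016, 0.074 and 0.0019. Rat batches 2, 3 and 4 did not differ from each other past the threshold, with the largest difference -0.17 between rat batches 4 and 2 (-0.33 to -0.02, limma adjusted p = 0.088).

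Kdr, the main signalling receptor, was higher in rat batches 3 and 6 than in rat batches 2 and 4 by mean. Its lowest, median and highest values were 6.39, 6.84 and 7.58 for rat batch 2, and for rat batch 3 they were 6.23, 7.25 and 7.86. In rat batch 4 they were 6.29, 6.84 and 7.46, whereas rat batch 6 gave 6.55, 7.27 and 7.83. All batches overlapped widely, and the female of rat batch 5 had 7.25. The mean was 6.86 ± 0.39 (SD, n = 12), 7.22 ± 0.40 (SD, n = 20), 6.90 ± 0.29 (SD, n = 26) and 7.23 ± 0.37 (SD, n = 16) in rat batches 2, 3, 4 and 6.

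Of the 6 pairs of rat batches, 2 passed the test for Kdr. Rat batch 6 exceeded rat batch 2 by a log2 difference of 0.36 (0.08 to 0.63, limma adjusted p = 0.037), and rat batch 4 was below rat batch 3 by -0.32 (-0.53 to -0.11, limma adjusted p = 0.013), where 39.8% of all genes were called. The difference of rat batches 6 and 2 no longer passed without the library with the fewest counts, male 10 of rat batch 2, when it was 0.32 (limma adjusted p = 0.077, with 0.026 to 0.55 over 16 alternatives). That of rat batches 4 and 3 was -0.24 and did not pass by voom (adjusted p = 0.068) or without the 6 libraries with the fewest counts (adjusted p = 0.074). It changed sign with column run as a covariate (0.70) and with 20 expression components as covariates (0.14), and passed in neither. For this pair 0 and 1 of all genes were called in those fits. The differences of rat batches 3 and 2 (0.34, 0.07 to 0.61) and of rat batches 6 and 4 (0.33, 0.11 to 0.56) were of the same size as the 2 that passed. Their limma adjusted p values were 0.13 and 0.077. Rat batches 4 and 2 differed by 0.03 (-0.23 to 0.28) and rat batches 6 and 3 by 0.01 (-0.22 to 0.25). The Kdr value of 6.23 in female 6 of rat batch 3 was the lowest of all 75 libraries, and that rat was the only one of its batch in column run 3.

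Flt1, the VEGF receptor with weak signalling, was called over rat batch just under the threshold, and its largest difference between batches was 0.14. Its lowest, median and highest values were 9.12, 9.45 and 9.75 for rat batch 2 and 9.33, 9.51 and 9.80 for rat batch 3. For rat batch 4 they were 9.24, 9.41 and 9.71, and for rat batch 6 they were 9.31, 9.59 and 9.92. The batches overlapped throughout. The mean was 9.48 ± 0.20 (SD, n = 12), 9.53 ± 0.14 (SD, n = 20), 9.44 ± 0.12 (SD, n = 26) and 9.58 ± 0.16 (SD, n = 16). No pair of rat batches passed the test. The difference with the lowest adjusted p was that of rat batches 6 and 4, 0.14 (0.05 to 0.24, limma adjusted p = 0.070). On the recovered counts with limma voom it was 0.17 and passed (adjusted p = 0.020, where 5.51% of all genes were called), and over 16 alternatives its adjusted p ran from 0.020 to 0.25. By voom the difference of rat batches 6 and 3, 0.05 on the deposited values, was 0.14 and passed as well (adjusted p = 0.019, where 43.1% were called).

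Vwf, the clotting factor gene, had its lowest mean in rat batch 6. Its lowest, median and highest values were 8.88, 9.17 and 9.69 for rat batch 2 and 8.98, 9.23 and 9.76 for rat batch 3. Those of rat batch 4 were 8.73, 9.17 and 9.46, and those of rat batch 6 were 8.79, 9.08 and 9.37. All batches overlapped. The mean was 9.22 ± 0.24 (SD, n = 12), 9.27 ± 0.21 (SD, n = 20), 9.16 ± 0.18 (SD, n = 26) and 9.09 ± 0.18 (SD, n = 16). Rat batch 6 was below rat batch 3 by -0.18 (-0.31 to -0.05, limma adjusted p = 0.025), the only pair that passed for Vwf. It did not pass by voom on the recovered counts (-0.09, adjusted p = 0.29) or without the 6 libraries with the fewest counts (-0.15, adjusted p = 0.085). Nor did it pass with 20 expression components as covariates (-0.20, adjusted p = 0.76) or with column run as a covariate, where its sign changed (0.0050, adjusted p = 0.9997). In those fits 9 and 0 of all 17180 genes were called for this pair.

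**Figure D2:**
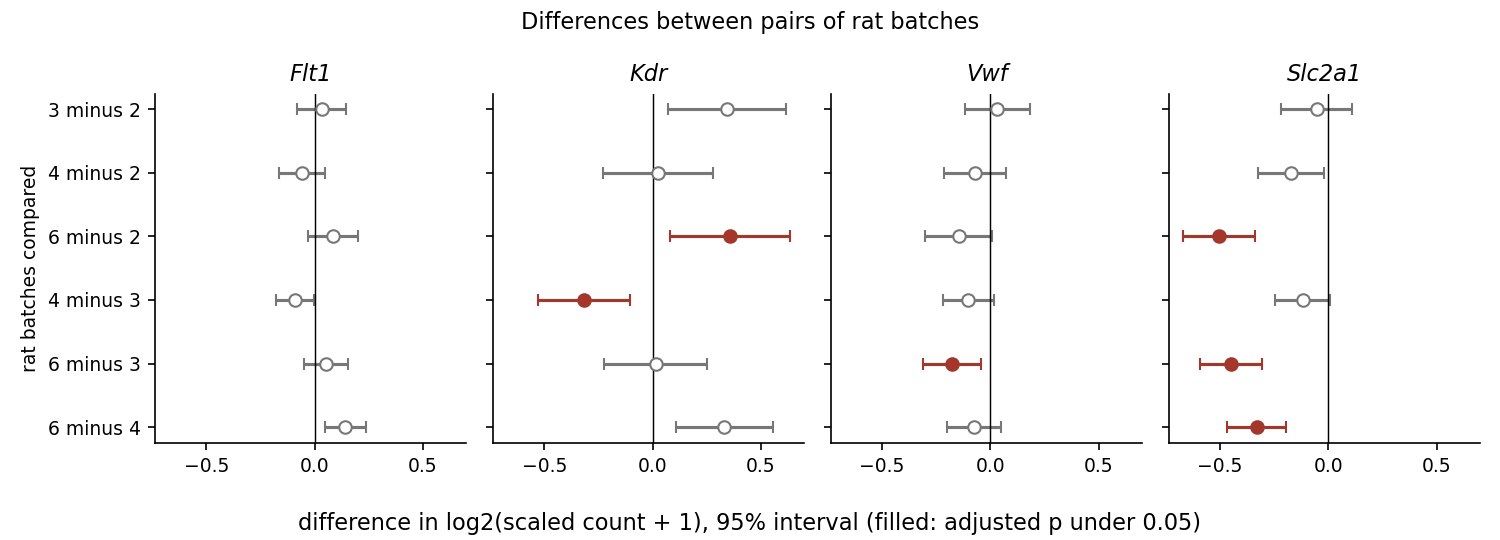
Differences between the 6 pairs of rat batches in log2(scaled count + 1) for each gene, with 95% intervals, filled where the limma adjusted p was under 0.05. The 6 filled points of 24 are 3 of Slc2a1, 2 of Kdr and 1 of Vwf, and the filled points of Slc2a1 all compare rat batch 6 with another batch.

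In all, 6 of the 24 differences between pairs of rat batches passed the test, a share near that over all genes and the 6 pairs, where 25.3% of the differences were called. The number was 1 with column run as a covariate (0.742% over all genes), 0 with 20 expression components as covariates (0.0475%) and 3 without the 6 libraries with the fewest counts (22.2%). With column run, all 765 calls over all genes were between rat batches 6 and 4, and every other pair had 0. No member was called between rat batches 3 and 2, where 3.44% of all genes were called, or between rat batches 4 and 2, where 26.9% were. Rat batches 4 and 6 together were also set against rat batches 2 and 3. Slc2a1 was lower by -0.31 (-0.41 to -0.21, limma adjusted p = 7.28e-07) and Vwf by -0.12 (-0.22 to -0.03, limma adjusted p = 0.026), so that 2 of 4 members were called where 48.6% of all genes were. The call of Vwf was lost by voom (-0.08, adjusted p = 0.18), with the log2 total count as a covariate (-0.11, adjusted p = 0.054), without the 6 libraries (-0.11, adjusted p = 0.065) and with 20 expression components as covariates (-0.16, adjusted p = 0.78). With column run as a covariate the difference changed sign, to 0.075 (adjusted p = 0.99995). In the fits with the run and with the components, 0 and 9 of all 17180 genes were called. Kdr differed by 0.02 (-0.15 to 0.19) and Flt1 by -0.003 (-0.07 to 0.07), and neither passed. The Kdr difference was 1.04 with column run as a covariate (adjusted p = 0.99995) and 0.55 with 20 expression components as covariates (adjusted p = 0.41).

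Column run overlaps with rat batch, and the fit was repeated with the run as a covariate. Slc2a1 (limma adjusted p = 0.012) and Kdr (0.047) were called over rat batch, while Flt1 (0.28) and Vwf (0.87) were not. For Kdr this was another pattern than without the run: rat batch 4 minus rat batch 3 went from -0.32 to 0.70, rat batch 4 minus rat batch 2 from 0.03 to 1.06 and rat batch 6 minus rat batch 3 from 0.01 to 1.03, none of them called with the run. Rat batch 6 minus rat batch 2 went from 0.36 to 1.39 and lost its call (adjusted p = 0.55), as it did with 20 expression components as covariates, at 0.95 (adjusted p = 0.22). The unadjusted limma p of this Kdr difference was 0.012 without the run, 0.00053 with the run and 0.0031 with the components. For this pair 5983, 0 and 16 of all 17180 genes were called in the same order. With the run, 0 genes were called in the other Kdr pairs given here as well. Over 18 alternatives the adjusted p ran from 1.59e-07 to 0.39 for Slc2a1 and from 0.0039 to 0.36 for Kdr. In the fit with the run, 0.984% of all genes, 169 of them, were called. The difference between rat batches 6 and 4 was again -0.33 for Slc2a1 (adjusted p = 0.0038), with 4.45% of all genes called. Its calls against rat batches 2 and 3 were lost with the run, at -0.75 against rat batch 2 (adjusted p = 0.71) and -0.58 against rat batch 3 (adjusted p = 0.95). For either pair 0 genes of the table were called with the run. With the 20 components these differences of Slc2a1 were -0.45 (adjusted p = 0.35) and -0.28 (adjusted p = 0.55), also not called. The difference of Slc2a1 between rat batches 6 and 4 was -0.29 with the 20 components and lost its call as well (adjusted p = 0.25). With the components, 16, 9 and 21 genes of the table were called for rat batch 6 against rat batches 2, 3 and 4. Between rat batches 4 and 6 and rat batches 2 and 3, Slc2a1 differed by -0.50 in the fit with the run, but the adjusted p was 0.99995 and 0 genes of the table were called, with 608 at an unadjusted p under 0.05. Kdr differed by 1.04 there (unadjusted p = 0.0041, adjusted p = 0.99995), against 0.02 without the run. In that fit the 2 sides are linked by the 1 library of rat batch 3 in run 3, female 6, whose Kdr value was the lowest of all libraries. Within rat batch 3, the mean of Slc2a1 was 11.35 ± 0.15 (SD, n = 7) in run 1 and 11.50 ± 0.27 (SD, n = 12) in run 2, and that of Kdr was 7.25 ± 0.38 (SD, n = 7) and 7.28 ± 0.33 (SD, n = 12). Batch and run cannot be told apart for rat batch 2 against rat batches 4 and 6.

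The log2 ratio of 2 members within a library was set out by rat batch, since the scaling of a library cancels in such a ratio apart from the added 1. The 6 ratios come from 4 genes, 3 of the ratios hold Slc2a1, and all were added after the members' values had been seen. Ratios of other gene pairs were not computed, so the values are given as a description with no test. The log2 ratio of Kdr over Slc2a1 was -4.64 ± 0.53 (SD, n = 12), -4.24 ± 0.57 (SD, n = 20), -4.44 ± 0.36 (SD, n = 26) and -3.77 ± 0.53 (SD, n = 16) in rat batches 2, 3, 4 and 6. In rat batch 6, 10 of the 16 rats lay above every rat of rat batch 2. The ratio of Flt1 over Slc2a1 was -2.01 ± 0.25, -1.92 ± 0.29, -1.89 ± 0.20 and -1.42 ± 0.25 in the same order. Both ratios carry the lower Slc2a1 values of rat batch 6 already given.

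The other ratios moved by smaller amounts. From rat batch 2 to rat batch 6, the mean of Vwf over Slc2a1 went from -2.27 to -1.92, that of Kdr over Vwf from -2.36 to -1.86, that of Flt1 over Vwf from 0.26 to 0.49, and that of Flt1 over Kdr from 2.63 to 2.35. Between rat batches 4 and 6, which share a column run, the difference in rat batch 6 was 0.66 for Kdr over Slc2a1, 0.47 for Flt1 over Slc2a1 and -0.19 for Flt1 over Kdr. It was 0.41 for Kdr over Vwf, 0.25 for Vwf over Slc2a1 and 0.22 for Flt1 over Vwf.

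**Figure D3:**
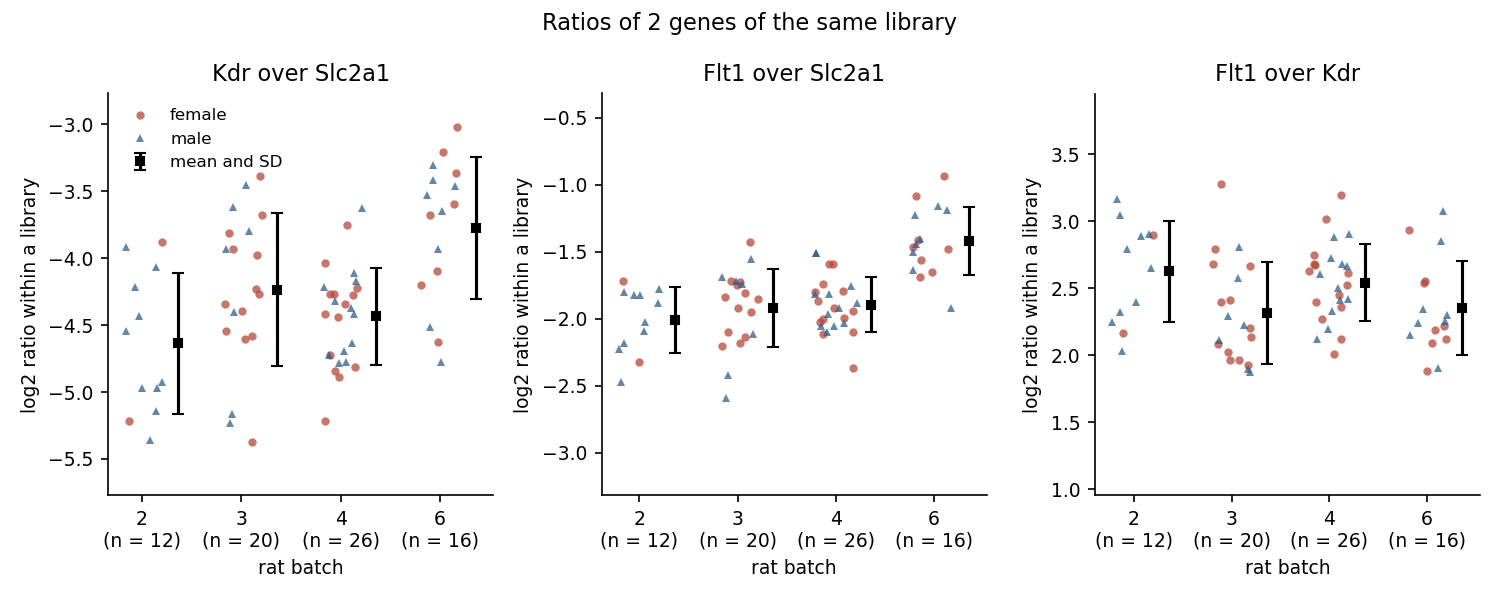
Log2 ratio of Kdr over Slc2a1, Flt1 over Slc2a1 and Flt1 over Kdr within each library by rat batch, with females as circles, males as triangles and the mean and SD as a square with bars. Both ratios over Slc2a1 are highest in rat batch 6, at means of -3.77 and -1.42, and the means of Flt1 over Kdr lie between 2.32 and 2.63.

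Co-variation between rats was measured on values with the means of each rat batch and sex removed, so that mean differences between batches or sexes gave no correlation. The 6 pairs of members were tested with 100000 permutations of rats within rat batch and sex, two-sided, with p-values adjusted over the 6. Kdr and Slc2a1 were negatively correlated, with Pearson r = -0.43 (permutation p = 0.00020, adjusted p = 0.0012, 74 rats) and Spearman rho = -0.43 (permutation p = 0.00027, adjusted p = 0.0016). Without the 2 rats farthest from the median of Kdr, r was -0.43 (permutation p = 0.00047). Rats with more GLUT1 transcript than others of their batch and sex tended to have less transcript of the VEGF receptor Kdr.

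The correlation of Kdr and Slc2a1 was negative in all 4 rat batches but uneven in size. It was -0.47 in rat batch 2 (12 rats), -0.57 in rat batch 3 (20 rats), -0.07 in rat batch 4 (26 rats) and -0.64 in rat batch 6 (16 rats). Without the 2 rats farthest from the median of Kdr in each batch, r was -0.65, -0.61, 0.14 and -0.60 in the same order. The within-batch permutation p values on all rats were 0.097, 0.010, 0.74 and 0.011, and none of the 24 within-batch tests passed after adjustment, with 0.13 the lowest adjusted p. The relation therefore held over the 4 batches pooled and not within any single one after adjustment, and rat batch 4 showed next to none of it. Whether the batches differed in this correlation was not tested. The 2 genes share each library, so a measure that differs between libraries enters both values.

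**Figure D4:**
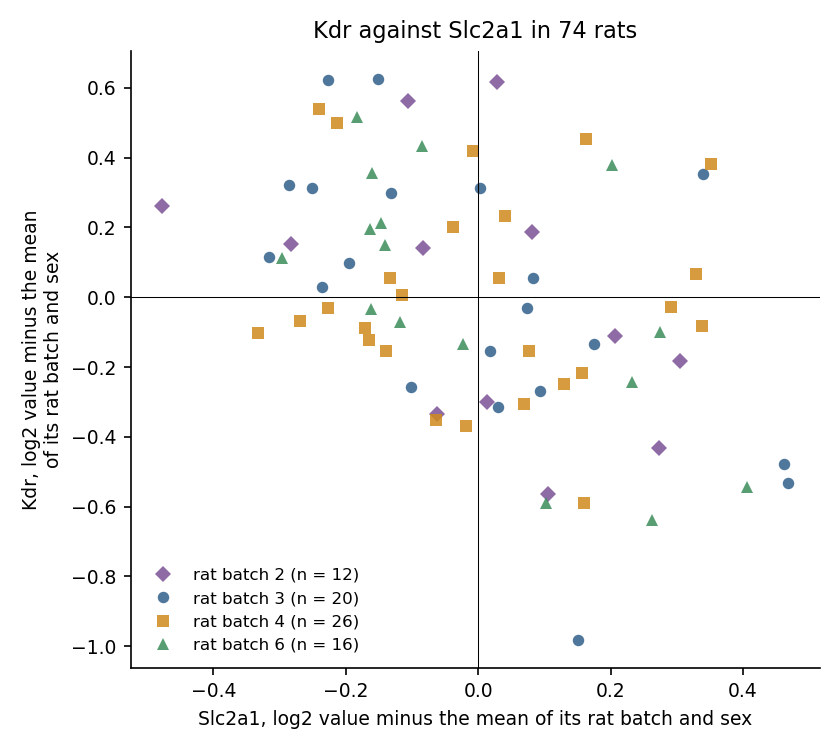
Kdr against Slc2a1 in 74 rats, each as the log2 value minus the mean of the rat batch and sex, with symbols for the 4 rat batches. The points run from upper left to lower right, with Pearson r = -0.43, and those of rat batch 4 (squares, r = -0.07) show no such trend.

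The correlation of the VEGF receptors was above 0 in all 4 rat batches but did not pass. Flt1 and Kdr had Pearson r = 0.29 (permutation p = 0.023, adjusted p = 0.069) and Spearman rho = 0.27 (permutation p = 0.037, adjusted p = 0.11), and r was 0.31 without the 2 rats farthest from the median of Flt1. By batch, in the order 2, 3, 4 and 6, it was 0.29, 0.36, 0.23 and 0.31. Female 11 of rat batch 6 had the highest value of its batch for both receptors, 9.92 for Flt1 and 7.83 for Kdr. Without the 2 farthest rats of each batch it was 0.60, 0.02, 0.19 and 0.08, so the values within the batches rested in part on those rats.

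Vwf was not clearly tied to the other members. Its Pearson r was 0.18 with Slc2a1 (Spearman rho = 0.22), -0.13 with Kdr (rho = -0.15) and -0.02 with Flt1 (rho = -0.01), with adjusted permutation p values of 0.28, 0.40 and 0.87 for r. Without the 2 rats farthest from the median of the first gene of each pair, these values were 0.24, -0.19 and 0.06. By batch, in the order 2, 3, 4 and 6, it was -0.31, 0.05, 0.37 and 0.58 with Slc2a1 and -0.04, 0.09, -0.18 and -0.51 with Kdr. Without the 2 farthest rats of each batch it was 0.73, 0.00, 0.45 and 0.73 with Slc2a1 and 0.52, -0.05, -0.18 and -0.53 with Kdr. Both signs in rat batch 2 thus rested on those rats, and in rat batch 3 the sign with Kdr turned. On all rats of each batch, the value of Vwf with Flt1 was -0.34, 0.20, 0.04 and 0.00. Flt1 and Slc2a1 had r = 0.12 (rho = 0.10, adjusted permutation p = 0.40, and 0.08 without the 2 farthest rats), with 0.34, -0.14, 0.28 and 0.05 within the batches. Without the 2 farthest rats of each batch it was -0.29, 0.05, 0.22 and 0.23, so the sign turned in rat batches 2 and 3.

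**Figure D5:**
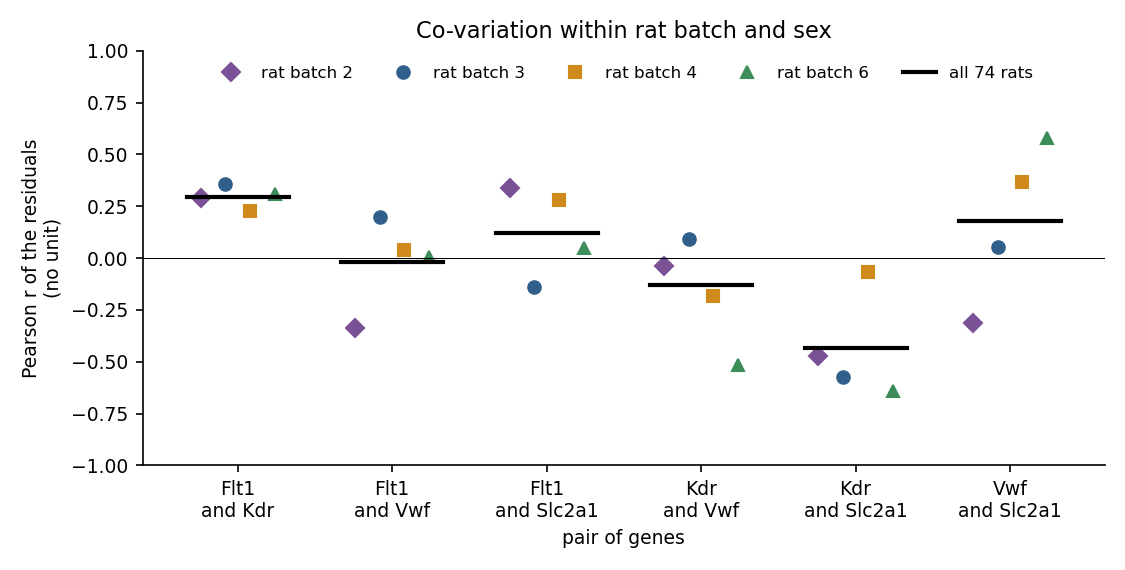
Pearson r of each pair of genes on values with rat batch and sex means removed, for all 74 rats (black lines) and within each rat batch (symbols). Kdr and Slc2a1 lie below 0 in every batch, Flt1 and Kdr above 0 in every batch, and the pairs with Vwf spread to both sides of 0.

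The same residual correlation was computed between each member and the 12987 other genes whose mean log2 value reached 5 or more, as a description without a test. Slc2a1 had the closest neighbours, with the 5 highest r from 0.62 to 0.75, against 0.50 to 0.52 for Flt1, 0.46 to 0.49 for Kdr and 0.38 to 0.46 for Vwf. Counted from the most negative r, Slc2a1 ranked 24th of these genes for Kdr and Kdr ranked 18th for Slc2a1. Flt1 ranked 165th from the top for Kdr, whereas Kdr ranked 759th for Flt1. Vwf ranked 1819th from the top for Slc2a1. All these values share the libraries and their depth.

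Sequencing depth was set beside these results. Between rats of the same batch and sex, the Pearson r with the log2 total count was -0.03 for Flt1, 0.05 for Kdr, -0.10 for Vwf and -0.15 for Slc2a1. The r with the number of genes at 0 was 0.01, -0.14, 0.00 and 0.25. In the 8 permutation tests the lowest adjusted p was 0.37, for Slc2a1 with the genes at 0 (Spearman rho = 0.28, adjusted p = 0.17, and r = 0.26 without the 2 rats farthest from the median number). Spearman rho with the log2 total count was -0.04, -0.03, -0.13 and -0.11.

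Males and females were compared with rat batch as a covariate. None of the 4 members was called, where 0.0873% of all genes were, and 0 members had an unadjusted p under 0.05 in limma. The difference of males minus females was -0.04 for Flt1 (-0.11 to 0.04), -0.04 for Kdr (-0.21 to 0.14), -0.04 for Vwf (-0.13 to 0.06) and -0.03 for Slc2a1 (-0.13 to 0.08), and the lowest limma adjusted p was 0.92. With 20 expression components as covariates these differences lay outside the intervals, at 0.21 for Flt1, 0.91 for Kdr, -0.22 for Vwf and -0.40 for Slc2a1, and none was called (lowest adjusted p = 0.80, for Kdr). Their standard errors were far larger in that fit, at 0.20, 0.48, 0.31 and 0.28, against 0.036, 0.087, 0.048 and 0.052 without the components. These values are thus imprecise and are not read as a sex difference. In rat batch 6, the 8 females had a mean Slc2a1 of 11.03 ± 0.21 and the 8 males of 10.97 ± 0.23, so the low level there was seen in both sexes. The interaction of sex and rat batch in rat batches 3, 4 and 6 was not called for any member, with 0% of all genes called. No member had an unadjusted interaction p under 0.05 in limma, against 506 of all genes, and the lowest member value was 0.28 for Flt1.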

How the data were processed

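RNA-Seq of polyadenylated RNA covered 86 rats. The 11 samples labelled as removed had no column and were not used. The authors trimmed single-end reads with cutadapt, estimated counts per gene with RSEM on the Ensembl rat transcriptome (Rnor_6.0), scaled each library to its upper quartile with DESeq2, filtered out scarcely read genes and deposited log2(scaled count + 1). Scaled counts were rounded to whole numbers, and a scaling factor searched between 0.55 and 2.5 gave back read counts, tested on simulated data. Deposited log2 values were tested with limma 3.58.1 in R 4.3.3 (lmFit, eBayes with trend), sex or rat batch as covariate, Benjamini-Hochberg adjustment over 17180 genes and a threshold of 0.05. Rat batch 5 (1 library) was left out of the fits. Permutation tests used Python 3.11.15 with NumPy 2.4.6. Each rat gave 1 library, so p-values measure the spread between rats.

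The members, lists, the contrast of rat batches 4 and 6 with 2 and 3, and the alternatives were chosen with earlier results of these data known. Named genes were to be the 4 members, the 5 genes most correlated with each and genes of cell type lists. The table and the reference do not pair the other identifiers with symbols, so the lists were not used and no other gene is named. RefSeq promoters (GRCr8) were matched by symbol, 3 of 4 members having one. Vwf was not matched. Alternatives were a filter on mean log2 values of at least 3, pseudocounts of 8 and 0.1, quantile normalization, normal scores, other eBayes settings, voom, added or dropped covariates, 20 expression components, and omission of the libraries with the fewest counts or of a rat batch. Ratios of members, pairs of batches under the alternatives, and correlations without 2 rats were added after seeing the data.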

Additional observations from a re-analysis of the deposited data

How the results depend on the processing

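Of 4 members, 3 were called over rat batch. The number was 0 with 20 expression components as covariates, where 12 genes of the table were called, 1 without the 6 libraries with the fewest counts (Slc2a1, with adjusted p = 0.060 for Kdr and 0.054 for Flt1), 1 without rat batch 4 (Slc2a1) and 1 without rat batch 6 (Kdr), where Slc2a1 had an adjusted p of 0.10. Of all 17180 genes, 8308 were called without the 6 libraries, 8025 without rat batch 4 and 7509 without rat batch 6. Slc2a1 passed in 16 of 18 alternatives, Kdr in 15 and Flt1 in 10, while Vwf passed only without rat batch 2 (adjusted p = 0.048). Over all genes, 9192 were called, 169 with column run as a covariate and 5723 without rat batch 3. Between rat batches 4 and 6 and rat batches 2 and 3, 2 members were called. The number was 1 with voom, with the log2 total count as a covariate and without the 6 libraries, and 0 with column run or the 20 components. Over all 17180 genes, 8355 were called in the main fit and 8279, 7915 and 7920 with voom, with the total count and without the 6 libraries. Only 0 and 9 genes of the table were called with column run and with the 20 components. Vwf changed sign with column run as a covariate, to 0.075 (adjusted p = 0.99995). Kdr differed by 0.02 in this contrast, by 1.04 with column run (adjusted p = 0.99995) and by 0.55 with the 20 components (adjusted p = 0.41), none past the threshold. Slc2a1 ran from -0.50 to -0.22 over 13 alternatives on the log2 scale. Voom called 5147 genes higher and 3132 lower in this contrast, against 4080 and 4275 on the deposited values. Of the differences between pairs of rat batches, 6 of 24 were called, 1 with column run, 0 with the 20 components and 3 without the 6 libraries, where 25.3%, 0.742%, 0.0475% and 22.2% of those of all genes were called. With column run, all calls over all genes were between rat batches 6 and 4. With column run as a covariate, Kdr in rat batch 4 minus rat batch 3 changed sign to 0.70 and Vwf in rat batch 6 minus rat batch 3 to 0.0050, and with the 20 components the Kdr difference was 0.14, none of them past the threshold. The difference of Slc2a1 between rat batches 6 and 4 ran from -0.34 to -0.29 over 15 alternatives, and its call was lost with the 20 components (adjusted p = 0.25). For that pair 21 genes of the table were called with the components. Of 6 pairs of members, 1 was correlated. The number was 2 with quantile normalization (Flt1 and Kdr, r = 0.31, adjusted p = 0.043) and 2 with the 20 components removed (Flt1 and Slc2a1, r = 0.30, adjusted p = 0.033). The permutations took no account of the 20 components removed, so the p values of that setting run low. The pair of Flt1 and Slc2a1 is therefore not read as a result. The r of Kdr and Slc2a1 ran from -0.46 to -0.40 and passed in all 9 alternatives, with the same limit on p for the 20 components. No alternative called a member between the sexes (18 alternatives). With the 20 components the sign turned for Flt1 (0.21, standard error 0.20) and Kdr (0.91, standard error 0.48). No residual SD moved by more than the SD of its values over rat batches (3 alternatives). The causes were not tested. No paired analysis was possible because numbers were given to rats as names and mark no pairing. Kdr had the lowest counts of the 4 members, with a counting SD of 0.13 against 0.36 between rats.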
